A study of Mus musculus with 15 samples.

Results

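First introns were compared with the later introns of the same genes for 5-hydroxymethylcytosine at CG sites (5hmCG) and for unmodified CG sites (uCG) in mouse embryonic stem cells. The members were the introns of autosomal protein-coding genes of GENCODE mouse release 21 whose longest protein-coding transcript, by spliced length, has at least 4 exons, and CGs that lie in any annotated exon were left out. Of 20807 autosomal protein-coding genes, 15543 qualified, with 15543 first, 142757 middle and 15543 last introns. First introns held 1946869 CGs, and the 158300 later introns, that is middle and last introns together, held 4987366. Together the introns covered 33.5% of the 20383623 autosomal CGs, and 2.72% of the entries were CGs that lie in introns of more than 1 gene and were counted for each.

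The DNA was that of a mouse embryonic stem cell line, E14TG2a, and no treatment is given for any of the libraries. For hmTOP-seq, a glucosyltransferase (BGT) transfers an azide-carrying glucose to 5hmC, a DNA oligonucleotide is clicked to it, and synthesis primed from there yields reads that start at or next to the modified cytosine. For uTOP-seq, a CG-specific methyltransferase tags unmodified CGs in the same manner. The hmTOP-seq libraries of 500, 50 and 5 ng of input DNA had 2 technical replicates each and 2 control libraries each without BGT, and the uTOP-seq libraries of 300 ng had 3 replicates. The replicates of 500 ng held 32502791 and 31918445 reads. Those of 50 ng were shallower, at 23027170 and 22052535 reads, and uTOP-seq gave 28412885, 23078739 and 20120568. No control library held more than 10072 reads. All replicates were of 1 kind of cells. The study calls those of hmTOP-seq technical replicates, and for uTOP-seq the kind of replicate is not stated. The SDs over replicates and the p-values below therefore measure only the spread between libraries of these cells. SDs over autosomes measure the spread between autosomes. Coverage is given as reads per CG with CGs without reads included. It is a relative measure within an assay and an input, and levels of different assays or inputs were not compared with each other. Transcription was not measured in these libraries.

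Introns are transcribed with the gene and removed by splicing, and the first intron begins closest to the transcription start site (TSS), often within the CG island that surrounds the promoter. CG islands of promoters are mostly unmethylated, and TET enzymes oxidise 5-methylcytosine to 5hmC, so that 5hmC needs a methylated CG to arise from. In embryonic stem cells 5hmC is known to be plentiful in gene bodies, at enhancers and at the borders of CG islands.

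Stretches of 150 bp from first introns show what such CGs look like in sequence. They were chosen after the values were seen, from genes at the extremes of the gene-level comparison described further on, as the window with the most CGs in that intron for Msi2, Dlg1, the first intron of Cdh1 and the fifteenth of Sycp2, and as the window with the most 500-ng reads for the others. All sequences are from GRCm38 (mm10), are given 5′ to 3′ on the strand of the gene, and have their CGs in capitals. The first 3 windows come from first introns without a single 5hmCG read at 500 or 50 ng.
Msi2 first intron, chr11:88717866-88718015, minus strand: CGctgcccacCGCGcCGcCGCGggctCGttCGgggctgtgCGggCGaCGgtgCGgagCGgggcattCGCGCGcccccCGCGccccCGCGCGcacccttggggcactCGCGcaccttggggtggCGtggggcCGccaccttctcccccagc
Cdh1 first intron, chr8:106603638-106603787, plus strand: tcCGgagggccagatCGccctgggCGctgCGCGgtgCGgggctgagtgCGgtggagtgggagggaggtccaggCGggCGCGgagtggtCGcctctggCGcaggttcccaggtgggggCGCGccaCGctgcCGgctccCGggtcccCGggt
Dlg1 first intron, chr16:31664324-31664473, plus strand: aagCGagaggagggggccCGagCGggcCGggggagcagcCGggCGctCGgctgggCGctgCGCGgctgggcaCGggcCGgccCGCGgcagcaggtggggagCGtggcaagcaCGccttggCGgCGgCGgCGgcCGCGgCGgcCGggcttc

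The Msi2 window starts 214 bp from the TSS and packs 25 CGs into its 150 bp, and uTOP-seq placed 13, 4 and 10 reads in it. The Cdh1 window, 287 bp from the TSS, has 18 CGs and 111, 73 and 75 uTOP-seq reads. The Dlg1 window, 881 bp from the TSS, has 24 CGs and 45, 27 and 20 uTOP-seq reads. Each of these 3 CG-dense stretches was therefore read as unmodified in every uTOP-seq replicate and as 5hmCG in none of the hmTOP-seq libraries of 500 and 50 ng. A window of the second intron of Cdh1, 19492 bp from its TSS, is shown for contrast, since its 4 CGs carried 87 and 72 reads in the 500-ng libraries, 28 and 52 in those of 50 ng and 24, 18 and 8 in uTOP-seq.
Cdh1 second intron, chr8:106622843-106622992, plus strand: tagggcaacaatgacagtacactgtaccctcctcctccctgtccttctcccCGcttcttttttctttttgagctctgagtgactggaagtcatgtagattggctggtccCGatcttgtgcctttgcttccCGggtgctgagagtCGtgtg

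High 5hmCG coverage is shown by windows of first introns that rank at the top for 5hmCG relative to the later introns of their genes.
Sycp2 first intron, chr2:178406972-178407121, minus strand: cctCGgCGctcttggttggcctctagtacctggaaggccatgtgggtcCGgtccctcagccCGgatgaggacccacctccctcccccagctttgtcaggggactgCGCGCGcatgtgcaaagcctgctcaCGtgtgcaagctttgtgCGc
Rnf212 first intron, chr5:108774723-108774872, minus strand: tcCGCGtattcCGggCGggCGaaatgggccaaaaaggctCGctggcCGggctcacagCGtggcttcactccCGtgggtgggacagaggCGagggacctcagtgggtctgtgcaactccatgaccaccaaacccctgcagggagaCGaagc
Zcwpw1 first intron, chr5:137788361-137788510, plus strand: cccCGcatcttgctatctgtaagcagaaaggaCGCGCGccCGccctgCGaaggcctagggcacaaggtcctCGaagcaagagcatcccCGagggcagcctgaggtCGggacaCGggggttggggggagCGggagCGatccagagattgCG
Cd46 first intron, chr1:195091821-195091970, minus strand: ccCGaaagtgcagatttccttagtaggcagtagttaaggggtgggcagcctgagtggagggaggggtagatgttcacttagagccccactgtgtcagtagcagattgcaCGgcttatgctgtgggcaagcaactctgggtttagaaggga
Sycp2 fifteenth intron, chr2:178383138-178383287, minus strand: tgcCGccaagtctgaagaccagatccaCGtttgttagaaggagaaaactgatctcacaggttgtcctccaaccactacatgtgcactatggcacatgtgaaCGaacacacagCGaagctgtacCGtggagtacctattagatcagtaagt

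The Sycp2 window lies 564 bp from the TSS, and its 9 CGs had 61 and 49 reads in the 500-ng libraries and 36 and 12 in those of 50 ng. The Rnf212 window lies only 110 bp from the TSS, and its 11 CGs had 182 and 142 reads with 500 ng of DNA and 87 and 91 with 50 ng. The 13 CGs of the Zcwpw1 window had 135 and 153 reads at 500 ng, and the 2 CGs of the Cd46 window had 49 and 74. These first-intron stretches were hydroxymethylated at distances from the TSS at which the Msi2, Cdh1 and Dlg1 windows had no 5hmCG read. They were read as unmodified as well, with 25, 10 and 13 uTOP-seq reads in the Sycp2, 61, 88 and 51 in the Rnf212, 31, 51 and 29 in the Zcwpw1 and 4, 5 and 14 in the Cd46 window. The difference in 5hmCG between these windows follows from how they were chosen. The window of the fifteenth intron of Sycp2, with 5 CGs, had 1 and 0 reads at 500 ng.

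Over all members, coverage of 5hmCG was slightly higher in first introns than in later ones, and coverage of uCG was clearly higher. At 500 ng, first introns had 1.87 and 1.84 reads per CG in the 2 replicates, and later introns had 1.72 and 1.7. At 50 ng, first introns had 1.33 and 1.28 reads per CG and later introns 1.23 and 1.18. In uTOP-seq, the replicates gave 1.84, 1.5 and 1.3 reads per CG in first introns and 1.31, 1.05 and 0.931 in later introns. In all 7 of these libraries first introns were above later introns. As a ratio within a library, which does not depend on depth, first introns had 1.08 ± 0.000643 times (SD, n = 2) the coverage of later introns at 500 ng, 1.09 ± 0.000219 times (n = 2) at 50 ng and 1.41 ± 0.0146 times (n = 3) in uTOP-seq. These are log2 ratios of 0.12, 0.12 and 0.50. With 2 or 3 replicates no exact test can reach a p of 0.05, and none was made for the pooled ratios. Set against these values, the background was low in both classes. Without BGT, first introns had 0.000541 and 0.000574 reads per CG and later introns 0.000559 and 0.000485 at 500 ng, and the classes overlapped. These levels are not scaled for the lower depth of the controls. As a ratio within a library, first introns without BGT had 1.07 ± 0.15 times (SD, n = 2) the coverage of later introns at 500 ng.

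**Figure D1:**
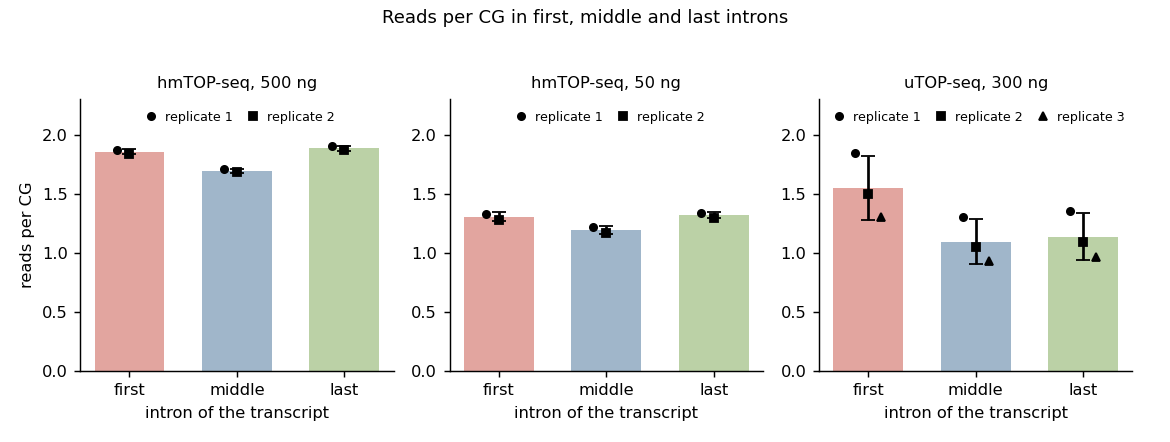
Coverage in first, middle and last introns for hmTOP-seq of 500 ng and 50 ng and for uTOP-seq. Bars are the mean reads per CG from 0, error bars the SD over 2 or 3 replicates and points the replicates. Last introns reach first introns for 5hmCG (1.89 and 1.85 at 500 ng) but not for uCG (1.14 and 1.55).

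Middle and last introns were not alike either. Last introns had 1.90 and 1.87 reads per CG at 500 ng and middle introns 1.71 and 1.68, a log2 ratio of last to middle introns of 0.15 ± 0.0014 (SD, n = 2). At 50 ng the ratio was 0.14 ± 0.012 (n = 2), and in uTOP-seq it was 0.055 ± 0.0030 (n = 3). For 5hmCG, the last introns thus stood at the level of the first introns, with 1.89 against 1.85 reads per CG on average at 500 ng, while for uCG they stood with the middle introns, at 1.14 against 1.09 reads per CG, below the 1.55 of first introns. By intron number, 5hmCG coverage at 500 ng went from 1.85 reads per CG in the first intron to 1.78 in the second and 1.71 in the third, stayed between 1.67 and 1.74 from the fourth to the ninth, and was 1.61 in middle introns from the tenth on. The uCG coverage went from 1.55 in the first intron to 1.2 in the second and 1.1 in the third, and then stayed between 1.03 and 1.08, so that the widest step followed the first intron.

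The share of CGs with a read differed less between the classes than reads per CG for 5hmCG. At 500 ng, 38.7% ± 1.18 (SD, n = 2) of first-intron CGs and 38.5% ± 1.27 of later-intron CGs had a read, a log2 ratio within libraries of 0.0083 ± 0.0037. At 50 ng the shares were 22.5% ± 0.956 and 21.6% ± 0.987, a log2 ratio of 0.057 ± 0.0045. In uTOP-seq the shares were 44.4% ± 2.76 and 37.5% ± 2.60 (n = 3). First introns were thus above later introns in the share of covered CGs as well, by less than the log2 ratios of 0.12 of reads per CG at both inputs.

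Within first introns, 5hmCG coverage was lowest in the first 0.5 kb from the TSS and uCG coverage highest from 0.5 to 1 kb. In the first 0.5 kb, 5hmCG coverage was 0.672 and 0.648 reads per CG at 500 ng and 0.456 and 0.434 at 50 ng, and it was 1.17 and 1.14 from 0.5 to 1 kb at 500 ng. From 5 to 10 kb it reached 2.32 and 2.28 at 500 ng and 1.65 and 1.58 at 50 ng. The uCG coverage went from 3.21, 2.64 and 2.24 reads per CG in the first 0.5 kb to 3.50, 2.94 and 2.48 from 0.5 to 1 kb, and was 1.7, 1.36 and 1.2 from 5 to 10 kb. Both marks thus rose from the first to the second 0.5 kb, and the first kilobase was lower in 5hmCG and higher in uCG than the stretch from 5 to 10 kb in all libraries of 500 ng, 50 ng and uTOP-seq. The shares of CGs with a read followed, since 14.2% of first-intron CGs in the first 0.5 kb had a 5hmCG read at 500 ng and 46.3% from 5 to 10 kb, against 58.5% and 43.7% with a uCG read.

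The same gradient was present on every autosome. The log2 ratio of the first kilobase to the stretch of 2 to 10 kb of first introns was -1.35 ± 0.20 at 500 ng (SD over 19 autosomes, negative on 19 of 19), -1.40 ± 0.20 at 50 ng (19 of 19) and 0.93 ± 0.10 in uTOP-seq (positive on 19 of 19). First introns were also the class that held this stretch, in that 13.9% of their CGs lay within 1 kb of the TSS, compared with 0.265% of middle-intron and 0.0445% of last-intron CGs. Its sequence differed from the rest of the intron. First introns had 43.8 CGs per kb and a GC content of 55.3% in the first 0.5 kb, and 9.31 CGs per kb and 43.7% GC from 2 to 5 kb.

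Later introns were compared at equal distance from the TSS. Between 5 and 10 kb, later introns had 2.32 and 2.28 reads per CG at 500 ng, the same as first introns to the digits given. In the first 0.5 kb, the 1803 CGs of later introns had 1.1 and 1.08 reads per CG at 500 ng, above the 0.672 and 0.648 of the 137431 first-intron CGs there, while uCG coverage was 3.82, 3.0 and 2.64. Near the TSS, then, later introns were also low in 5hmCG, but less so than first introns.

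**Figure D2:**
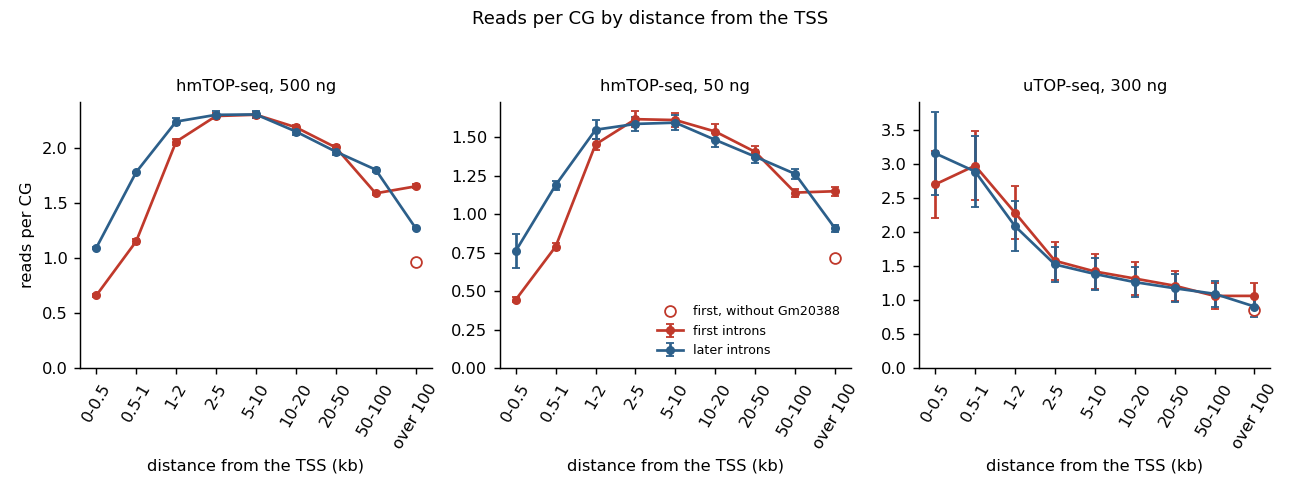
Mean reads per CG of first and later introns by distance from the TSS in 9 bins, for hmTOP-seq of 500 ng and 50 ng and for uTOP-seq, with error bars for the SD over replicates. Both classes run together between 2 and 50 kb, first introns start at 0.660 reads per CG for 5hmCG and 2.70 for uCG, and the open marker beyond 100 kb is the value of first introns without Gm20388.

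Beyond 50 kb from the TSS the 2 classes parted, and beyond 100 kb a single gene model decided in which direction. From 50 to 100 kb, first introns had 1.60 and 1.58 reads per CG at 500 ng and 1.16 and 1.12 at 50 ng, below later introns at 1.81 and 1.79 and at 1.29 and 1.24. Beyond 100 kb and over all genes, first introns there had 1.66 and 1.64 reads per CG at 500 ng and later introns 1.28 and 1.27. Gm20388, a protein-coding gene model on chromosome 8 with a first intron of 4.38 Mb at chr8:119910940-124295357, spans 60 other member genes and alone supplied 25.4% of the first-intron CGs beyond 100 kb and 3.24% of all first-intron CGs. Its first intron had 3.72 and 3.61 reads per CG at 500 ng. Without this gene model, an alternative chosen after seeing the data, first introns beyond 100 kb had 0.964 and 0.966 reads per CG, below later introns at 1.28 and 1.26. The 50-ng libraries moved the same way, from 1.17 and 1.13 with it to 0.719 and 0.710 without it, against 0.925 and 0.894 in later introns.

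Gm20388 also bore on the pooled ratios, most of all after matching for distance. With first and later introns compared within 9 bins of distance from the TSS and the bins weighted by their CGs, the log2 ratio of first to later introns was 0.033 ± 0.0018 at 500 ng (SD, n = 2), 0.046 ± 0.0032 at 50 ng (n = 2) and 0.065 ± 0.0097 in uTOP-seq (n = 3). Without Gm20388 the matched ratio was -0.062 at 500 ng, -0.040 at 50 ng and 0.022 in uTOP-seq, so that the direction for 5hmCG turned. The unmatched ratios without it were 0.070, 0.077 and 0.49 and kept their direction. Chromosome 8 was also the autosome with the highest matched ratio at 500 ng, at 0.50 against 0.11 on the next highest, chromosome 13. Of the 19 autosomes, 15 had an unmatched ratio above 0 at 500 ng, but only 7 had a matched ratio above 0. For uCG the unmatched ratio was above 0 on 19 of 19 autosomes and the matched ratio on 11. Matched for distance from the TSS, the difference between both classes of introns was thus smaller for uCG, and for 5hmCG its sign rested on 1 gene model.

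The 5hmCG profile along first introns depended on the promoter. Promoters were sorted by the sequence within 500 bp of the TSS into 7292 CG-rich, 3441 intermediate and 4810 CG-poor ones. In the first 0.5 kb, first introns behind CG-rich promoters had 0.259 and 0.246 reads per CG at 500 ng, those behind intermediate promoters 1.18 and 1.14, and those behind CG-poor promoters 2.99 and 2.91. From 5 to 10 kb the order was turned, with 2.57 and 2.53 behind CG-rich, 2.10 and 2.05 behind intermediate and 1.75 and 1.72 behind CG-poor promoters. The dip at the TSS was therefore seen behind CG-rich and intermediate promoters, and behind CG-poor promoters the first 0.5 kb was the stretch of highest 5hmCG coverage of the first intron.

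Unmodified CGs showed less of this ordering. In the first 0.5 kb, uCG coverage was 3.03, 2.49 and 2.10 reads per CG behind CG-rich promoters, 4.25, 3.55 and 3.02 behind intermediate and 2.32, 1.87 and 1.62 behind CG-poor promoters. All 3 promoter classes had more uCG there than at 5 to 10 kb, where the values were 1.82, 1.46 and 1.28 behind CG-rich and 1.41, 1.13 and 1.01 behind CG-poor promoters. Behind CG-poor promoters, 5hmCG and uCG were thus both highest next to the TSS.

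**Figure D3:**
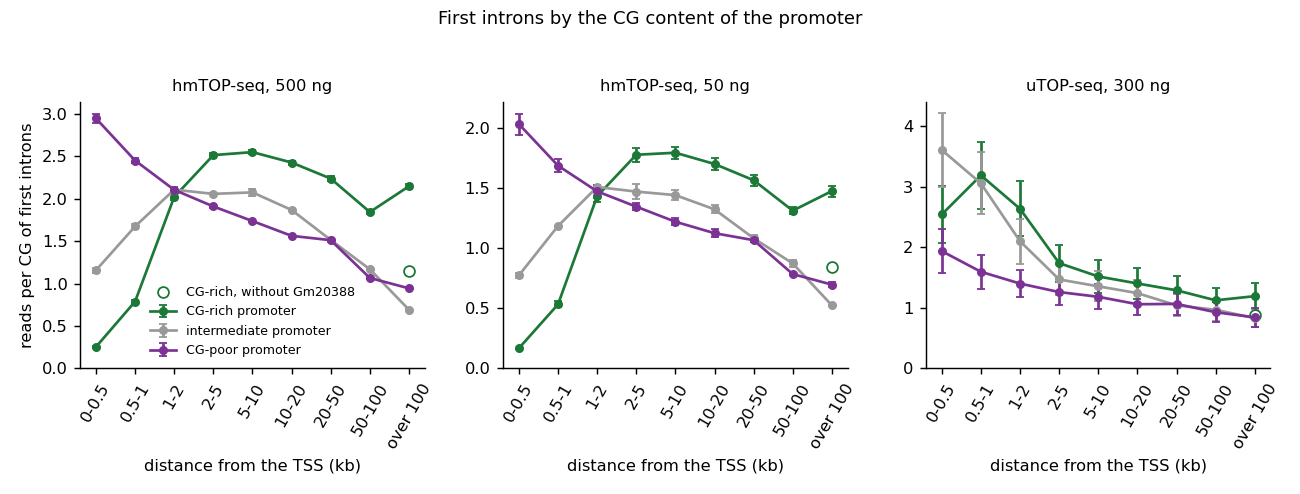
Mean reads per CG of first introns by distance from the TSS, separately for genes with CG-rich, intermediate and CG-poor promoters, with error bars for the SD over replicates. Near the TSS, 5hmCG at 500 ng was 0.252 reads per CG behind CG-rich and 2.95 behind CG-poor promoters, and the open marker beyond 100 kb is the CG-rich class without Gm20388.

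Matched for distance and pooled over genes, first introns behind intermediate and CG-poor promoters had less 5hmCG than later introns of the same promoter class. Within a distance bin, first and later introns need not come from the same genes, so this is not a contrast within genes. In the test by gene described below, CG-poor promoters had 766 higher and 744 lower calls at 500 ng, and intermediate ones 663 and 1264. The matched log2 ratio at 500 ng was -0.30 ± 0.0077 (SD, n = 2) for intermediate and -0.23 ± 0.0031 for CG-poor promoters, and at 50 ng it was -0.26 ± 0.0079 and -0.19 ± 0.0092. By autosome, 18 of 19 were below 0 for intermediate and 13 of 19 for CG-poor promoters at 500 ng. Behind CG-rich promoters the matched ratio was 0.14 at 500 ng with Gm20388 and 0.0084 without it, with 14 of 19 autosomes above 0 in either case. The corresponding uCG ratios were -0.072 for intermediate, -0.11 for CG-poor and 0.11 for CG-rich promoters, the last 0.050 without Gm20388.

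Local CG density went with 5hmCG coverage in both directions. For each CG the number of CGs within a 180-bp window centered on it was counted. In first introns within 1 kb of the TSS, 145847 CGs had more than 10 CGs in their window, and these had 0.251 and 0.234 reads per CG at 500 ng and 2.94, 2.40 and 2.02 in uTOP-seq. First-intron CGs of the same density at 1 kb or more from the TSS had 1.02 and 0.958 reads per CG, and later-intron CGs 1.43 and 1.33. At 7 to 10 CGs in the window, first introns had 1.28 and 1.23 reads per CG within 1 kb of the TSS but 3.58 and 3.46 farther away, where later introns had 3.55 and 3.42. Away from the TSS, 5hmCG coverage rose from 0.958 reads per CG at solitary CGs to 3.52 at 7 to 10 CGs and dropped to 0.990 above 10, on average over both 500-ng replicates. Equal local density thus did not give equal coverage. First introns near the TSS were lower in 5hmCG than later introns at 4 to 6 CGs (1.99 against 2.51 on average), at 7 to 10 CGs and above 10. They were higher at solitary CGs, with 1.24 against 0.753 reads per CG, and at 2 to 3 CGs, with 1.99 against 1.37. The part of density and of methylation in these differences was not tested.

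Exon borders differed between first and later introns as well. At 10 to 24 nt into the intron from the 5′ splice site, first introns had 0.738 and 0.715 reads per CG at 500 ng, middle introns 3.58 and 3.48 and last introns 4.09 and 4.03. Deep in the intron, at 5 kb or more from it, first introns were instead the highest, with 1.97 and 1.94 in first, 1.46 and 1.44 in middle and 1.51 and 1.49 in last introns. The 5′ end of the intron was therefore the low point of 5hmCG in first introns and close to the high point in middle and last introns. First introns begin closest to the TSS, so the position beside the 5′ splice site and nearness to the TSS cannot be told apart in them. For uCG the same position had 3.21, 2.58 and 2.17 reads per CG in first and 2.07, 1.64 and 1.48 in middle introns.

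At the 3′ splice site the classes resembled each other more. In the last 9 nt of the intron, 5hmCG coverage at 500 ng was 3.21 and 3.27 reads per CG in first introns over 715 CGs, 5.08 and 4.79 in middle introns over 6395 CGs and 5.71 and 5.34 in last introns over 698 CGs. In each class this was above the 10 to 24 nt next to it, where the means were 1.86, 2.79 and 2.93 reads per CG. First introns thus had a 5hmCG maximum at their 3′ end and not at their 5′ end.

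**Figure D4:**
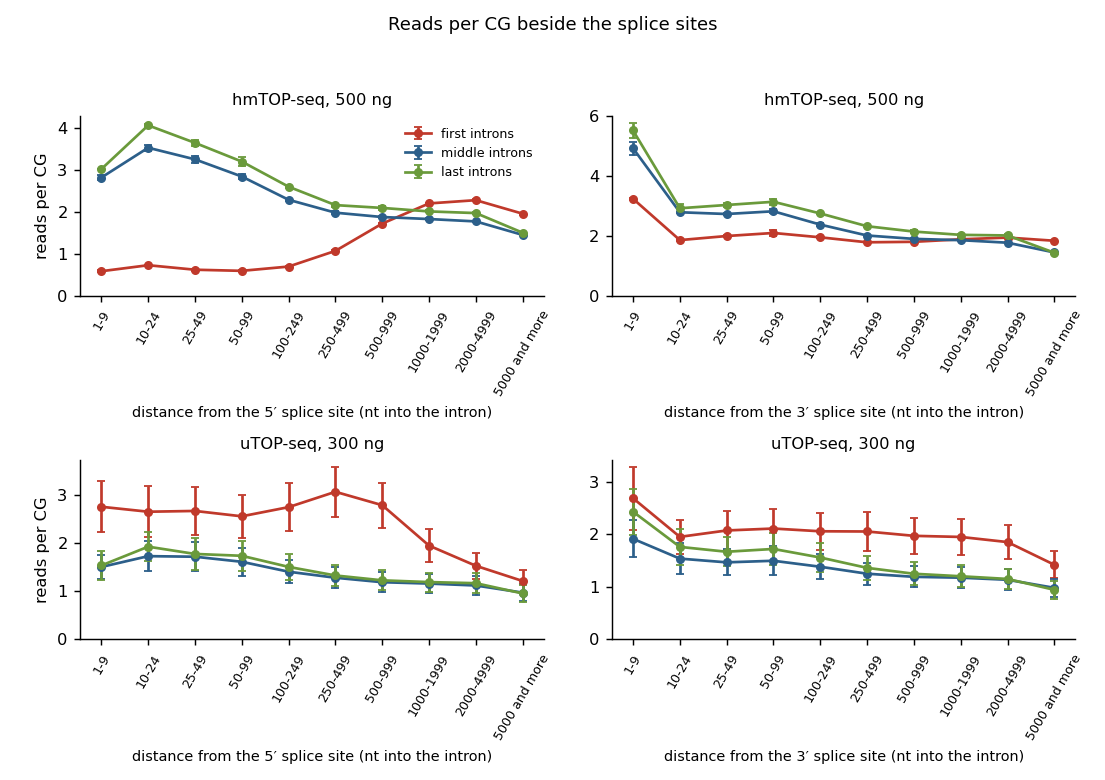
Mean reads per CG of first, middle and last introns by distance in nt from the 5′ and from the 3′ splice site, for hmTOP-seq of 500 ng and for uTOP-seq. For 5hmCG at 500 ng, first introns lie at 0.726 reads per CG and middle introns at 3.53 at 10 to 24 nt from the 5′ splice site, and all 3 classes have a maximum in the last 9 nt before the 3′ splice site.

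Gene by gene, the balance for 5hmCG was turned around, and first introns were lower than later introns in more genes than they were higher. Reads in first and later introns of a gene were compared with the quasi-likelihood test of edgeR in genes with at least 10 CGs in each class and 20 reads, with the number of CGs and the library size as offsets and a threshold of 0.05 on the Benjamini-Hochberg adjusted p. Of 11314 genes tested at 500 ng, 2722 (24.1%) were higher and 5399 (47.7%) lower in the first intron, with a median log2 ratio of -0.34. At 50 ng, 1411 (12.5%) of 11254 were higher and 3159 (28.1%) lower, with a median of -0.33. In uTOP-seq, 7054 (61.9%) of 11394 were higher and 1236 (10.8%) lower, with a median of 0.56. The median over genes and the pooled ratio thus differed in sign for 5hmCG, and they had the same sign for uCG. With TMM scaling, which centers the bulk of genes, the medians were -0.076, -0.12 and 0.0023, and the calls became 3763 higher and 4303 lower at 500 ng, 1998 and 2538 at 50 ng, and 3879 and 3675 in uTOP-seq, so that the share of higher calls went from 33.5% to 46.7%, from 30.9% to 44.0% and from 85.1% to 51.4%. With CGs within 1 kb of any transcript start left out, fewer genes could be tested, and 2733 of 8104 genes were higher and 2631 lower at 500 ng, 1149 and 933 of 8071 at 50 ng, and 3037 and 1310 of 8139 in uTOP-seq. With 1 library left out, the spread comes from the libraries of the other input, and the counts were 694 higher and 1804 lower without replicate 1 of 500 ng, 703 and 1846 without replicate 2, 2162 and 4348 without replicate 1 of 50 ng, and 2289 and 4464 without replicate 2.

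The length of the first intron went with the sign. The 2387 genes with a first intron over 20 kb are 15.4% of the genes but hold 67.3% of all first-intron CGs, while the 4118 genes with a first intron under 1 kb, 26.5% of the genes, hold 1.96%. At 500 ng, 929 of 1225 tested genes with a first intron under 1 kb were lower and 126 higher there, with a median of -3.16 when genes without a read were set to the bound of 3 reads. The minimum of 10 CGs per class and 20 reads left only these 1225 of the 4118 genes, so short first introns with few CGs are not in this median. Pooled over all 4118 genes, first introns had 1.04 reads per CG on average at 500 ng and later introns 1.86. For first introns over 20 kb, 828 of 2357 were lower and 888 higher, with a median of 0.021. The medians between these extremes were -1.10 for 1 to 2 kb, -0.63 for 2 to 5 kb and -0.15 for 5 to 20 kb. For uCG the medians fell in the opposite order, from 1.04 below 1 kb to 0.26 above 20 kb. The pooled ratio thus rested mostly on long first introns, and lower calls were most frequent among the short ones that could be tested.

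**Figure D5:**
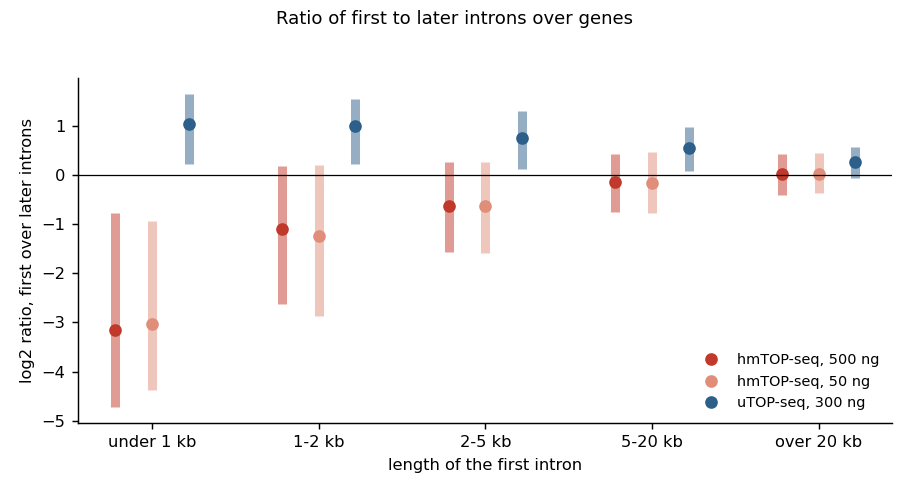
Log2 ratio of first to later introns per gene, as the median and the quartiles over the genes tested, by length of the first intron for hmTOP-seq of 500 ng and 50 ng and for uTOP-seq; genes without a read in 1 class are set to the bound of 3 reads. The medians for 5hmCG at 500 ng go from -3.16 below 1 kb to 0.021 above 20 kb, and those for uCG from 1.04 to 0.26. Below 1 kb, only 1225 of 4118 genes could be tested at 500 ng.

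Promoter class split the genes likewise. Behind CG-rich promoters, 3391 of 6209 genes were lower and 1293 higher for 5hmCG in the first intron at 500 ng (median -0.47), and behind CG-poor promoters 744 of 2472 were lower and 766 higher (median 0.033). For uCG, 4547 of 6234 genes with CG-rich promoters were higher (median 0.70), compared with 737 of 2518 with CG-poor promoters (median 0.049).

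Nearly all genes called at 50 ng were called in the same direction at 500 ng. Of the 11239 genes tested at both, 1369 were called higher at both, which is 97% of the calls at 50 ng and 50.5% of those at 500 ng. Likewise 3087 were called lower at both, 97.8% of the calls at 50 ng and 57.5% of those at 500 ng, and 0 were called in opposite directions. The difference itself was tested by edgeR in a model with both inputs, and 0 (0%) of 11377 genes had a higher and 0 (0%) a lower first-to-later ratio at 50 ng than at 500 ng, whereas 645 had an unadjusted p below 0.05. Without the second replicate of 50 ng, 12 genes were called higher and 15 lower, and without any other single library 0. Across genes, which are not independent replicates, the log2 ratios of the inputs had a Pearson r of 0.88 and a Spearman rho of 0.91.

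Across genes, the correlation of the 5hmCG ratio with the uCG ratio was near 0 with all CGs and higher with the promoter region left out. Pearson r between the 500-ng and uTOP-seq ratios was 0.061 over 11303 genes (rho 0.0012), and 3208 genes were lower for 5hmCG and higher for uCG in the first intron, 59.4% of those lower for 5hmCG and 45.6% of those higher for uCG, near the 61.9% and 47.7% over all genes tested. In the same direction, 2003 were higher for both, 73.7% of those higher for 5hmCG beside 61.9% of all genes, and 856 were lower for both, 69.8% of those lower for uCG beside 47.7% of all genes. Only 97 were higher for 5hmCG and lower for uCG, 3.57% of those higher for 5hmCG beside 10.8% of all genes. With only CGs at least 5 kb from the TSS, r was 0.56 over 5519 genes (rho 0.56). At this distance 166 genes were lower for 5hmCG and higher for uCG, 9.22% of those lower for 5hmCG beside 30.8% of all genes. The reverse held for 79 genes, 3.996% of those higher for 5hmCG beside 19.7% of all genes lower for uCG. There, 1124 were higher for both, 56.9% of those higher for 5hmCG beside 30.8% of all genes for uCG, and 783 were lower for both, 43.5% of those lower for 5hmCG beside 19.7%. The points share the number of CGs and the sequence of the introns, whose part in this relation was not tested.

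With CGs at least 5 kb from the TSS only, higher and lower calls were near balance for 5hmCG. Of 5523 genes at 500 ng, 1979 (35.8%) were higher and 1801 (32.6%) lower in the first intron, with a median log2 ratio of 0.041. At 50 ng, 880 (16.0%) of 5502 were higher and 747 (13.6%) lower, and in uTOP-seq 1709 (30.8%) of 5540 were higher and 1093 (19.7%) lower. With TMM scaling the counts were 1896 higher and 1885 lower at 500 ng, 815 and 842 at 50 ng, and 1430 and 1373 in uTOP-seq. Last introns against middle introns were also near balance, with 2000 (28.9%) of 6924 genes higher and 1904 (27.5%) lower at 500 ng, 725 (10.5%) and 563 (8.16%) of 6896 at 50 ng, and 1130 (16.2%) and 1210 (17.4%) of 6973 in uTOP-seq. The balance at 50 ng shifted with a cap of 20 reads per CG, to 587 higher and 345 lower, and DESeq2 called 736 and 703 in uTOP-seq. The log2 ratio of the median reads per CG over genes, last to middle introns, was below 0, at -0.049 at 500 ng, -0.077 at 50 ng and -0.055 in uTOP-seq over genes weighted equally, although the pooled ratio was above 0 in all 3. These counts also changed with 1 library left out. At 5 kb or more from the TSS they were 357 higher and 278 lower without replicate 1 of 500 ng, 359 and 315 without replicate 2, 1680 and 1455 without replicate 1 of 50 ng, and 1667 and 1502 without replicate 2. For last against middle introns they were 224 and 97, 255 and 114, 1488 and 1438, and 1535 and 1625 in the same order, and 737 and 762 without replicate 2 of uTOP-seq.

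Genes were named by the rank of their fitted log2 ratio at 500 ng, so their values are a description. Where a first intron has no read, this rank follows the number of reads in later introns, so that the 10 lowest are not the 10 with the widest bounds. The 10 with the lowest ratio all had CG-rich promoters, had first introns between 174 and 1332 bp long, and had 0 reads there in all 4 libraries of 500 and 50 ng. Msi2, an RNA-binding protein of stem and progenitor cells, had 0 and 0 reads over 33 first-intron CGs at 500 ng, against 4.49 and 4.42 reads per CG in its later introns, so that its first intron was at least 98.0-fold lower, counting 3 reads over both libraries as the floor. Cdh1, which encodes E-cadherin of epithelia and stem cell colonies, had 0 and 0 reads over 40 CGs against 3.62 and 3.65 reads per CG in later introns, at least 97-fold lower. Their uCG values differed. The first intron of Msi2 had 0.818 uTOP-seq reads per CG on average against 2.0 in its later introns, and that of Cdh1 had 4.86 against 3.26 (edgeR adjusted p 2.9e-09).

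The largest bound among these 10 was that of Tent4b, a noncanonical poly(A) polymerase, whose 104 first-intron CGs were at least 201.6-fold lower than its later introns at 3.09 and 2.73 reads per CG. Jag2, a Notch ligand, was at least 92.8-fold lower and Tle4, a transcriptional corepressor, at least 79.2-fold. The bounds of Arid4a, Eif4g3, Dlg1, Ppp4r1 and Baz1a lay between 35.7-fold and 55.0-fold. Dlg1 encodes a scaffold protein of cell junctions, Eif4g3 a translation initiation factor and Ppp4r1 a regulatory subunit of protein phosphatase 4, and Arid4a and Baz1a encode chromatin proteins. For uCG, 3 of these 10 first introns, those of Cdh1, Dlg1 and Arid4a, were called higher than later introns, 6 were called lower and that of Tle4 was not called (adjusted p 0.098), beside 61.9% higher and 10.8% lower over all genes tested. First introns without a 5hmCG read thus included ones with much and ones with little uCG coverage.

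The 10 genes with the highest ratio had all 3 kinds of promoters, and all 10 were called higher for uCG, beside 61.9% of all genes tested. Slc25a31, an ADP/ATP carrier of germ cells, had 2.36 and 2.38 reads per CG in its first intron at 500 ng and 0.0732 in its later introns in both replicates, 32.4-fold over 6 later-intron reads in all, and it was 5.82-fold higher at 50 ng. Aqp4, a water channel, had 4.65 and 4.59 reads per CG against 0.108 and 0.189, 31.1-fold, and was 15.5-fold higher at 50 ng. In both genes the later introns were close to empty and the first intron was above the average of all first introns. Sycp2, a protein of the meiotic synaptonemal complex, had 4.10 and 3.71 against 0.143 and 0.253 (log2 ratio 4.30 ± 0.27 SE, edgeR adjusted p 3.3e-08). Rnf212, a factor of meiotic crossing-over, had 7.57 and 6.00 against 0.340 and 0.353 (4.28 ± 0.22, adjusted p 7.4e-09).

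The other 6 were Cyp2j13 (12.4-fold), a cytochrome P450, Cd46 (12.1-fold), a complement regulator, Sohlh2 (11-fold), a transcription factor of germ cells, Anxa11 (9.71-fold), a calcium-dependent phospholipid-binding protein, Zcwpw1 (9.41-fold), a histone methylation reader of meiosis, and Tbx15 (9.04-fold), a T-box factor of skeletal development. All 10 were also called higher at 50 ng, where the rule had already required the same sign. Leaving out CGs within 1 kb of any transcript start turned the ratio of Zcwpw1 at 50 ng to -0.36, where it was not called (edgeR adjusted p 0.82). At 5 kb or more from the TSS, the 5 highest genes were Anxa11, Cfhr2, Nlrp9c, Tbx15 and Nus1, of which Nus1 was not called at 50 ng. There, Anxa11 had 5.48 and 5.88 reads per CG in its first intron and 0.545 and 0.412 in its later introns.

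At 5 kb or more from the TSS, the lowest fitted ratios were those of Kmt5a, Klhdc4, Loxl2, Dnah6 and Nipa2. Loxl2 had 0 first-intron reads there, its bound was only 16.8-fold at 500 ng, and it was not called at 50 ng (edgeR adjusted p 0.102), whereas Dnah6 was 43.9-fold and Nipa2 33.8-fold lower with reads in both classes. Without soft-masked CGs the log2 ratio of Nipa2 at 50 ng turned to 0.39 and was not called (edgeR adjusted p 0.91). Kmt5a, the methyltransferase for lysine 20 of histone H4, had 0 reads over 51 CGs in both 500-ng libraries against 3.75 and 4.15 reads per CG in later introns, at least 134.3-fold lower, and its first intron had 1.39 uTOP-seq reads per CG against 2.15. In Klhdc4, Loxl2, Dnah6 and Nipa2, uCG coverage of this stretch was also low, at 0.0723, 0, 0 and 0.0547 reads per CG against 1.53, 0.0361, 1.01 and 0.573 in later introns. In these 4 genes few modified and few unmodified CGs were read in the first intron at this distance, and in Loxl2 uCG coverage was low in later introns as well.

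Gene lists of known function were read against the background of 24.1% higher and 47.7% lower for 5hmCG with 500 ng of DNA. With 50 ng these shares were 12.5% and 28.1%, and in uTOP-seq 61.9% and 10.8%. Of 20 pluripotency genes, 19 have at least 4 exons and 15 were tested, of which 0 were higher and 14 lower in the first intron for 5hmCG at 500 ng, with a median log2 ratio of -1.45 beside -0.34 over all genes. At 50 ng 0 were higher and 8 lower, and for uCG 9 were higher and 2 lower, near the background. With TMM scaling, 1 was higher and 9 lower at 500 ng, with a median of -1.19, while for uCG 5 were higher and 6 lower. Over all genes, that scaling gave 3763 higher and 4303 lower of 11314 at 500 ng, with a median of -0.076, and 3879 and 3675 of 11394 for uCG. Klf5, a transcription factor of self-renewal, had 0.149 and 0.253 reads per CG in the first intron and 3.78 and 3.77 in later introns (log2 ratio -4.23 ± 0.23 SE, adjusted p 1.2e-08). Sall4, another stem cell transcription factor, had 1.24 and 1.41 against 4.32 and 4.43, and Nanog had 1.35 and 1.11 against 3.07 and 3.67. In all 3 genes both replicates of the first intron lay below both replicates of the later introns. Esrrb, a nuclear receptor, was closest to balance among those called, with 3.87 and 3.8 against 4.23 and 4.26 (log2 ratio -0.15). Dppa2 was not called, at 2.06 and 1.81 against 2.31 and 2.88. Rif1 and Lin28a, a regulator of DNA replication timing and an RNA-binding protein, had 0 first-intron reads in all 4 libraries and were at least 21-fold and 9.66-fold lower at 500 ng. Nr5a2 was lower at 500 ng (-0.22) but was at 0.48 without the CGs within 1 kb of a transcript start. Pou5f1, Tbx3, Klf4 and Tcl1 had too few CGs in 1 of both classes to be tested.

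The genes that write, read and remove DNA methylation stood near the background for 5hmCG. Of 13 tested, 4 were higher and 6 lower at 500 ng (median -0.12), and 11 were higher and 2 lower for uCG. Dnmt1, the maintenance methyltransferase, had 6.75 and 6.43 reads per CG in its first intron and 3.21 and 3.16 in later introns (log2 ratio 1.05 ± 0.06 SE, adjusted p 2.9e-08). Uhrf1, which brings Dnmt1 to replicating DNA, had 0.0667 and 0.0778 against 4.94 and 4.76, the widest contrast of the list (-6.05). Tet1, the main TET dioxygenase of these cells, had 0.525 and 0.534 against 4.23 and 4.07 in 236 first-intron CGs (-2.97 ± 0.09, adjusted p 1.6e-10), while its uCG coverage was 3.98 against 2.58 on average. Tet2 was higher, with 1.84 in both replicates against 1.28 and 1.56 (0.38). Dnmt3b, a de novo methyltransferase, had 0.154 and 0.0513 against 2.40 and 2.86, but its ratio turned to 0.90 with the transcript of the longest genomic span, which moves the first intron. Dnmt3a was lower by little (-0.12) and was at 0.26 without the CGs within 1 kb of a transcript start. The list median turned to 0.44 under that alternative and to 0.15 with TMM scaling.

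The housekeeping list was not tested against the pluripotency list, in which only 4 of the 15 tested genes had CG-rich promoters. Of 12 housekeeping genes tested, all with CG-rich promoters, 0 were higher and 10 lower for 5hmCG at 500 ng, beside 20.8% higher and 54.6% lower among genes with CG-rich promoters. Their median was -2.02, or -1.92 with genes without reads at their bound. For uCG 8 were higher and 1 lower, near the background of 61.9% higher and of 72.9% among genes with CG-rich promoters. Cct2, a subunit of the CCT chaperonin, had 0 and 0 reads over 26 first-intron CGs and 2.86 and 2.68 reads per CG in later introns, at least 48.0-fold lower, and its uCG coverage was 4.85 against 1.61. Polr2a, the largest subunit of RNA polymerase II, had 0.945 and 0.745 against 3.35 and 4.08 (-2.13). Psmd1 and Sf3b1 were not called. Without the CGs within 1 kb of a transcript start, Sf3b1 was higher, at 0.84 (edgeR adjusted p 4.9e-05), and the ratios of Cct5 and Vcp turned to 0.52 and 0.11 and were not called (adjusted p 0.20 and 0.76). With TMM scaling, 0 were higher and 10 lower for 5hmCG at 500 ng, beside 3763 and 4303 of all 11314 genes. For uCG 6 were then higher and 2 lower, beside 3879 and 3675 of all 11394 genes.

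Regulators of other lineages, most of which are silent in stem cells, had a smaller contrast. Of 20 tested lineage regulators, 5 were higher and 10 lower for 5hmCG at 500 ng (median -0.37), close to the background, and 13 were higher and 1 lower for uCG, near its background of 61.9%. Tbx5, a T-box factor of heart and forelimb, had 9.41 and 8.54 reads per CG in its first intron and 4.11 and 3.87 in later introns (log2 ratio 1.17), and Gata4, a factor of heart and endoderm, had 4.52 and 3.75 against 2.31 and 2.46. Pax7, a regulator of muscle stem cells, had 1.14 and 0.895 against 4.31 and 4.02 (-2.04), and Isl1, a LIM homeodomain factor, had 0.783 and 1.39 against 4.73 and 5.02. The ratio of Tfap2a (-2.03) turned to 0.073 with the transcript of the longest genomic span and was not called (edgeR adjusted p 0.60). Members of this list were thus called in both directions.

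Of 14 synaptic and ion channel genes, 6 were higher and 7 lower for 5hmCG (median -0.10), and of 10 hepatocyte genes, all with CG-poor promoters, 2 were higher and 3 lower (median -0.22), beside 31.0% higher and 30.1% lower among all genes with CG-poor promoters. Both medians were above 0 with TMM scaling, at 0.16 and 0.040, and without the CGs within 1 kb of a transcript start, at 0.17 and 0.11. Gria1, a glutamate receptor subunit, had 3.03 and 2.47 reads per CG in its first intron against 0.854 and 0.911, and Cntnap2, a neurexin-family adhesion protein whose first intron is 593607 bp long, had 0.221 and 0.205 against 0.484 and 0.492. Trf, the serum iron carrier transferrin, had 5.96 and 5.27 against 2.50 and 2.25 (log2 ratio 1.24), and C8a, a complement component, had 0.476 and 0.619 against 1.45 and 1.33 (-1.34). For uCG, 9 synaptic genes were higher and 3 lower, and 1 hepatocyte gene was higher and 4 lower, beside 29.3% higher and 21.5% lower among genes with CG-poor promoters (median 0.049), so that the hepatocyte list was the only one of the 6 with a median uCG ratio below 0 (-0.33), while with TMM scaling that of the synaptic list was below 0 as well (-0.26).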

How the data were processed

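The deposited values are whole-number read counts per CG site and library, without normalization. According to the methods of the study, the authors made the hmTOP-seq counts by trimming and length-filtering reads, mapping them to mm10 with a minimum mapping quality, keeping 1 read of those with the same start and length, and assigning reads to CG sites. The deposited hmTOP-seq counts have both strands merged. The uTOP-seq counts were deposited by strand and were merged here to CGs, and the details of their processing are not given in the sources used here. Removing reads of equal start and length lowers counts most at deeply covered sites. The aligner version is not given in the sources used here.

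CG positions were checked against the GRCm38 (mm10) sequence. Introns were taken from GENCODE release M21, with 1 transcript per gene, the longest protein-coding one by spliced length. Promoters were classed within 500 bp of the TSS, as CG-rich at an observed-to-expected CG ratio of at least 0.6 and a GC share of at least 0.55, as CG-poor at a ratio under 0.4 and as intermediate otherwise. Matched ratios weighted 9 distance bins (borders at 0.5, 1, 2, 5, 10, 20, 50 and 100 kb) in Mantel-Haenszel form. Reads per gene and intron class were tested with the quasi-likelihood test of edgeR 4.0.16 (R 4.3.3), with the library as a block, the library total times the number of CGs as offset and no TMM factors, in genes with at least 10 CGs per class and 20 reads, with Benjamini-Hochberg adjustment over all genes tested and a threshold of 0.05. Each assay and input was fitted alone, except in the test of the difference between inputs. With 1 library of 500 or 50 ng left out, the spread came from the libraries of the other input. DESeq2 1.42.0 was an alternative. Summaries and plots used Python 3.11.15, numpy 2.4.6, pandas 2.3.3 and matplotlib 3.10.9.

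Tested on simulated counts with 100 genes changed per fold size, the test recovered 81% of 2-fold and 98% of 4-fold changes among 11314 genes at 500 ng, 38% and 75% among 11254 genes at 50 ng and 85% and 98% among 11394 genes in uTOP-seq, and at most 0.0900% of unchanged genes were called. Named genes had at least 30 CGs per class and 100 reads at 500 ng, were called there and had the same sign in all 4 libraries of 500 and 50 ng. Of the 5236 genes that met this (1864 higher, 3372 lower), the 10 highest and 10 lowest were taken, and of the 2689 with CGs at least 5 kb from the TSS (1485 higher, 1204 lower) the 5 highest and 5 lowest. The members, gene lists and windows were chosen with earlier results of these data known. Klf2 of the pluripotency list has too few exons. A gene of the lineage list is not reported here and was left out of its counts. The alternatives were another transcript, CGs of more than 1 gene or in soft-masked sequence left out, a cap of 20 reads per CG, CGs within 1 kb of any transcript start left out, the share of CGs with a read, the ratio of the medians over genes of reads per CG, TMM, DESeq2, no filter, no replicate block and each library left out. The 5-ng libraries entered no comparison.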

Additional observations from a re-analysis of the deposited data

Results flagged for a closer look

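The hmTOP-seq libraries made from 5 ng of DNA entered none of the comparisons, and their first introns carried a signal above that of their controls. First introns had 0.879 reads per CG on average, with 0.868 and 0.889 in the 2 replicates, whereas the 2 control libraries without BGT had 0.000255 and 0.000289. Later introns had 0.794 and 0.815 reads per CG, so that first introns were above later introns in both replicates, with log2 ratios of 0.13 and 0.13.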

How the results depend on the processing

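Pooled log2 ratios are given here in the order 500 ng, 50 ng and uTOP-seq. For first against later introns, with 0.12, 0.12 and 0.50 as reported, the transcript of the longest genomic span gave 0.100 and 0.102, leaving out CGs of more than 1 gene 0.110 and 0.112, leaving out soft-masked CGs 0.0816 and 0.0831, and the cap of 20 reads 0.107 and 0.111. Without CGs within 1 kb of any transcript start the ratios were 0.273, 0.275 and 0.274, and for the share of CGs with a read 0.00827, 0.0570 and 0.245. The ratio of the median reads per CG over genes in each class, which is not the median of the fitted ratios, was -0.469, -0.428 and 0.659, so that both 5hmCG ratios reversed. In alternatives chosen after seeing the data, without Gm20388 the 5hmCG ratios were 0.0696 and 0.0765 and without chromosome 8 0.0651 and 0.0723. For last against middle introns, with 0.15, 0.14 and 0.055 as reported, the transcript of the longest span gave 0.140, 0.132 and 0.0224, and leaving out CGs within 1 kb of any transcript start 0.172, 0.160 and 0.0707. The share of CGs with a read gave 0.0777, 0.101 and 0.0236, and the ratio of medians over genes reversed all 3, to -0.0488, -0.0773 and -0.0550. At 500 ng and in uTOP-seq, leaving out CGs of more than 1 gene gave 0.147 and 0.0520, soft-masked CGs 0.163 and 0.0626 and chromosome 8 0.151 and 0.0493, and the cap gave 0.147 at 500 ng.

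Matched for distance, with 0.033, 0.046 and 0.065 as reported, the transcript of the longest span gave 0.00577 and 0.0177 for 5hmCG, leaving out soft-masked CGs 0.0397 and 0.0546, the cap 0.0285 and 0.0423, leaving out CGs within 1 kb of any transcript start 0.0711 and 0.0804, and CGs at least 5 kb from the TSS 0.0478 and 0.0571. Leaving out CGs of more than 1 gene gave 0.00744, 0.0217 and 0.0412. The sign reversed at 500 ng for the share of CGs with a read, at -0.0161 beside 0.0106 at 50 ng and 0.0284 in uTOP-seq. It reversed at both inputs without Gm20388, at -0.0621, -0.0396 and 0.0223, and without chromosome 8, at -0.0676, -0.0448 and 0.0207. Bins of smaller width moved none of these ratios beyond the spread between replicates. The cause of these shifts was not tested.

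With 1 replicate left out, the ratio of first to later introns ranged from 0.117 to 0.118 at 500 ng, from 0.1186 to 0.1191 at 50 ng and from 0.490 to 0.505 in uTOP-seq. That of last to middle introns ranged from 0.153 to 0.155, from 0.136 to 0.153 and from 0.0541 to 0.0570, and the matched ratio from 0.0319 to 0.0344, from 0.0435 to 0.0480 and from 0.0623 to 0.0707.

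Counts of called genes changed as follows. For first against later introns, leaving out CGs within 1 kb of any transcript start gave 2631 lower at 500 ng, 933 lower at 50 ng and 3037 higher in uTOP-seq, and TMM scaling gave 3879 higher and 3675 lower in uTOP-seq. For last against middle introns, the cap gave 345 lower at 50 ng, and DESeq2 736 higher and 703 lower in uTOP-seq. The library was the replicate block, since both classes were counted in each library. With no replicate block, first against later introns had 2878 higher and 5602 lower at 500 ng, 1676 and 3649 at 50 ng and 7124 and 1268 in uTOP-seq, and 1 gene was called higher for the difference between inputs where the block gave 0. No other count changed by more than 1.5 times without the block. Replicate numbers did not pair the inputs, as the deviations of replicate 1 at 500 and 50 ng had a correlation across genes of 0.0035.

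Leaving out 1 replicate, first against later introns gave 694 to 703 higher and 1804 to 1846 lower at 500 ng, 2162 to 2289 and 4348 to 4464 at 50 ng, and 6462 to 6686 and 982 to 1081 in uTOP-seq. At 5 kb or more from the TSS these were 357 to 359 and 278 to 315, 1667 to 1680 and 1455 to 1502, and 1410 to 1585 and 913 to 995. For last against middle introns they were 224 to 255 and 97 to 114, 1488 to 1535 and 1438 to 1625, and 737 to 982 and 762 to 1068. For the difference between inputs they were 0 to 12 higher and 0 to 15 lower. At 500 and 50 ng the remaining library was assumed to vary like those of the other input.

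Of 1274 values of named genes and lists under alternatives, 1176 kept direction and call, 46 lost the call, 21 gained it and 31 reversed. Without CGs within 1 kb of any transcript start, reversed log2 ratios at 500 ng were those of Nr5a2 (0.48), Dnmt3a (0.26), Hnf4a (-0.80), Cct5 (0.52), Vcp (0.11) and Sf3b1 (0.84), at 50 ng those of Zcwpw1 (-0.36) and Ebf1 (0.97), and in uTOP-seq that of Polr2a (-0.083). With the transcript of the longest span they were those of Dnmt3b (0.90 at 500 ng, 1.08 at 50 ng), Lhx2 (-0.29), Tfap2a (0.073) and Proc (0.37). At 5 kb or more, Nipa2 at 50 ng was at 0.39 without soft-masked CGs. The reversed ratios of Zcwpw1, Cct5, Vcp, Polr2a, Tfap2a and Nipa2 were not called. List medians at 500 and 50 ng reversed without CGs within 1 kb of any transcript start for genes of DNA modification (0.44, 0.34), synaptic genes (0.17, 0.093) and hepatocyte genes (0.11, 0.40). With TMM scaling, tried on the lists after seeing the data, they were 0.15 and 0.085, 0.16 and 0.13, and 0.040 and 0.17, and the synaptic median in uTOP-seq was -0.26. Without soft-masked CGs the synaptic medians were 0.11 and 0.036, and with the longest span the hepatocyte median at 50 ng was 0.15.

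In the simulated data the 50-ng libraries recovered 38% of 2-fold changes, so that genes not called there are not shown to be equal. Intervals between the technical replicates of hmTOP-seq cover library preparation and counting only, and for uTOP-seq the kind of replicate is not stated.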

Other observations

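Distance from the 3′ end of the gene also went with coverage. Last introns had 2.78 and 2.75 reads per CG at 500 ng within 1 kb of the transcript end, 2.43 and 2.4 from 1 to 2 kb and 1.57 and 1.56 from 10 to 20 kb. Middle introns at the same distance were higher, with 3.70 and 3.54 reads per CG within 1 kb and 2.09 and 2.04 from 10 to 20 kb. The uCG coverage fell along the same path, in last introns from 1.90, 1.55 and 1.37 reads per CG within 1 kb to 1.18, 0.940 and 0.811 from 10 to 20 kb. In last introns both marks were thus higher next to the transcript end than 10 to 20 kb from it.

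Coverage of both marks was lower in repeats in every class of introns, and since only reads of a minimum mapping quality were kept, less coverage cannot be told apart from fewer reads that could be placed there. In soft-masked sequence, first introns had 1.22 and 1.21 reads per CG at 500 ng, compared with 2.02 and 1.98 outside it. Middle introns had 1.02 and 1.0 against 1.89 and 1.86, and last introns 1.11 and 1.08 against 2.11 and 2.08. In uTOP-seq, first introns had 1.01, 0.827 and 0.726 reads per CG in soft-masked sequence and 2.03, 1.65 and 1.43 outside it.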
